A study of Mus musculus with 29 samples.

Results

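Cbx2, Cbx6, Cbx7 and Cbx8 are the genes described here, 4 of 20554 protein-coding genes and of 46705 annotated genes on mouse chromosomes 1 to 19. They were taken by name at their RefSeq positions on mm10, and the H2Aub types were read over each gene body and 100 kb on each side. H2Aub is histone H2A with ubiquitin on lysine 119 (H2AK119ub). The study measured it by CUT&RUN, in which an antibody guides a nuclease that cuts out the DNA around a mark, in mouse oocytes and early embryos. It set H2Aub beside H3K27me3, and set embryos with maternal loss of Eed or with overexpressed PR-DUB, an H2A deubiquitinase, beside their controls. The values used here are 1 deposited segmentation of the genome, in which each stretch carries an H2Aub type from 1 to 5. The types come with no key, so a type is a name and not a level of H2Aub.

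The series held 29 libraries in 16 groups of 1 to 3, 24 of H2Aub and 5 of H3K27me3, and the libraries with a stated number held 1 to 300 oocytes, embryos or epiblasts. The 16 wild-type H2Aub libraries covered 8 stages from germinal vesicle oocyte to epiblast of embryonic day 6.5. Germinal vesicle oocytes of this set came from B6/129 mixed mice with Eed (fl/fl), and metaphase II oocytes from B6/DBA mice. Zygotes, inner cell masses and epiblasts came from B6/DBA mothers and PWK fathers, as did 1 of 3 libraries of 2-cell embryos. The other two 2-cell libraries, the 4-cell embryos and the morulae had Eed (fl/fl) mothers of B6/129 mixed background and PWK fathers, so that many of the libraries named wild-type carried the floxed allele. The 6 libraries named Eed MatKO (germinal vesicle oocytes, 4-cell embryos and morulae) came from Gdf9-Eed (fl/fl) females, Gdf9 being a gene expressed in growing oocytes, and the embryos again had PWK fathers. The 6 libraries of PR-DUB (CTR) and PR-DUB (OE) came from 4-cell embryos of B6/DBA mothers and PWK fathers. The remaining library measured H3K27me3 in B6/DBA germinal vesicle oocytes. No value of the segmentation belongs to a single library. Read depth is therefore unknown, there are no replicates to compare, and the comparisons between stages and genotypes were not analysed here. All shares below are descriptions with no test.

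Polycomb repressive complex 1 (PRC1) places H2Aub through its ubiquitin ligases Ring1 and Rnf2. Canonical PRC1 also holds a Cbx protein, whose chromodomain binds H3K27me3, the mark of Polycomb repressive complex 2 (PRC2), and so joins one mark to the other. Cbx2, Cbx6, Cbx7 and Cbx8 encode proteins of this kind. Cbx7 is the main one in embryonic stem cells, and Cbx2 compacts nucleosomes and acts in sex determination and axial patterning. Cbx1, Cbx3 and Cbx5 carry a related chromodomain, but they are the HP1 proteins of heterochromatin and bind H3K9me3.

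The sequences before the gene starts are shown because PRC1 is known to gather at CpG-rich gene starts, in part through the CpG-binding subunit Kdm2b. RefSeq promoters on GRCm38.p6, the same build as mm10, matched 3 of the 4 genes, and Cbx2 had no entry. The first listed start of each gene was used, and that of Cbx7 lies inside its annotated body. Each run is the 250 bases before the gene start, 5′ to 3′ on the minus strand, on which these 3 genes lie, and capitals mark every CG pair. The runs lie at chr11:119040914-119041163 for Cbx8, chr15:79834334-79834583 for Cbx6 and chr15:79932647-79932896 for Cbx7.
Cbx8: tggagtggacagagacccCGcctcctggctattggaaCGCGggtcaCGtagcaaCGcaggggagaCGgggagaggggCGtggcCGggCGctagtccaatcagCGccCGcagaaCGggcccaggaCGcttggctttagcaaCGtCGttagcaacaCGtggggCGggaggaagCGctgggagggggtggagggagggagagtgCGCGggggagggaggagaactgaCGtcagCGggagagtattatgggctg
Cbx6: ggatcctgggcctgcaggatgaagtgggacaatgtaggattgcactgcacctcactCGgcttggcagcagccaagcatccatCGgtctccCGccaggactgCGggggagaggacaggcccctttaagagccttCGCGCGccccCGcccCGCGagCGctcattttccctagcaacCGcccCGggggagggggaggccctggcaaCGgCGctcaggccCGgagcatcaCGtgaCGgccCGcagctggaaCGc
Cbx7: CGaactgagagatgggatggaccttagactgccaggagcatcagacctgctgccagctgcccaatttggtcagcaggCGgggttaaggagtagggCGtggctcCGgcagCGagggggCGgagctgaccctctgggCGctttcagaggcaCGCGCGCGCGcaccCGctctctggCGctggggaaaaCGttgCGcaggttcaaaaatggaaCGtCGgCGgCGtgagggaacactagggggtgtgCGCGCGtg

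The Cbx8 run held 22 CG pairs at a G and C content of 66.4%, the Cbx6 run 20 pairs at 68.0% and the Cbx7 run 23 pairs at 64.8%. The ratio of observed to expected CG pairs was 0.909 for Cbx8, 0.692 for Cbx6 and 0.917 for Cbx7. All 3 lay in the CG-rich part of the gene starts: the same 250 bases were available for 16456 protein-coding genes, which had a median of 10 pairs. As many pairs or more stood at 19.6% of starts for Cbx8, 24.1% for Cbx6 and 17.4% for Cbx7. The gene starts of Cbx6 and Cbx7 lay in type 3 and that of Cbx8 in type 4. Starts in type 3 had a median of 13 pairs, those in type 1 11, those in type 4 8, those in type 2 5 and those in type 5 2. Of the 3960 starts with at least 20 pairs, 45.4% lay in type 3, 36.5% in type 1 and 12.7% in type 4, against 39.8%, 32.2% and 14.9% of all starts. CG-rich starts were thus about as frequent in type 1 as in type 3.

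**Figure D1:**
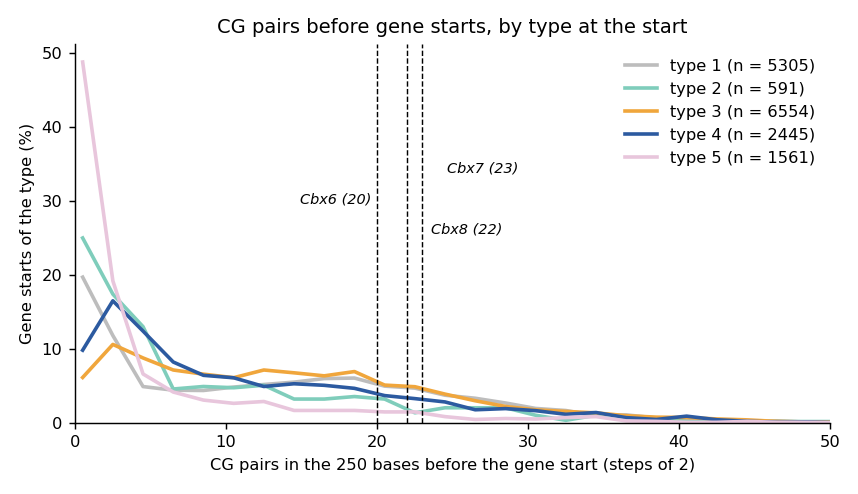
CG pairs in the 250 bases before the gene start (x axis, in steps of 2) against the share of gene starts of each type (y axis, percent), 1 line for each type at the start. Dashed lines mark Cbx6 at 20 pairs, Cbx8 at 22 and Cbx7 at 23. Cbx6 and Cbx7 start in type 3, whose starts had a median of 13 pairs. Cbx8 starts in type 4, with a median of 8.

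Motifs were searched in the same runs on both strands. The E-box CACGTG, the site of Myc, Max and Mga, stood once in the Cbx8 run, beginning 98 bases before the gene start, and once in the Cbx6 run, beginning 26 bases before it. It was in no position of the Cbx7 run, and 6.71% of all 16456 runs held it (7.43% of those with a type 3 start). The E2F motif GCGGGAA, which 5.03% of the runs held, and the Yy1 core GCCAT, which 29.9% held, had no match in the 3 runs. The E-box includes 1 CG pair and was counted in both searches.

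Cbx2 and Cbx8 lay side by side in a short type 3 segment between long type 4 segments. Cbx2 (gene ID 12416, chromosome 11, 119023019 to 119031275, 8.26 kb) was wholly type 3. Cbx8 (gene ID 30951, chromosome 11, 119036303 to 119040913, 4.61 kb) was type 3 over 80.2% of its body and type 4 over 19.8%. The genes were 5.03 kb apart. The type 3 segment, chr11:119000001-119040000, was 40 kb long, and only these 2 protein-coding genes touched it. The type 4 segment below it was 585 kb long and the one above it 210 kb.

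The border between types 3 and 4 at position 119040000 ran through Cbx8. The gene is read from the higher end, so its start at 119040913 lay 913 bp inside type 4 while most of the body lay in type 3. Borders stand in steps of 5 kb, wider than this distance, and 1 step would put the start into type 3. A gene is called mainly of the type that covers more of its body than any other. Of 16456 protein-coding genes with a start in the promoter table, 239 (1.45%) were mainly type 3 with the start in type 4, Cbx8 among them. Cbx2 lay 23.0 kb from the lower and 8.72 kb from the higher border of the segment. Both ends of Cbx2 lay in type 3.

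Over the body and 100 kb on each side, the Cbx2 window was 80.8% type 4 and 19.2% type 3, and the Cbx8 window 80.5% and 19.5%. Types 1, 2 and 5 were in neither. These windows share 195 kb, 93.6% of the Cbx2 window and 95.3% of the Cbx8 window, so they are nearly the same stretch of chromosome. Among the windows of all protein-coding genes, 2.10% had as much type 4 as that of Cbx2 or more, and the median held none.

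Of the non-coding genes in these windows, the lncRNA gene Gm35829 (119011305 to 119023839) was wholly type 3 and overlapped the lower end of Cbx2. Enpp7, which encodes an intestinal sphingomyelinase, lay wholly in the 585 kb type 4 segment, as did the lncRNA gene Gm35710. On the other side of Cbx8, the lncRNA genes Gm39482, Gm35878 and Gm11755 lay wholly in the 210 kb type 4 segment. Cbx2 thus stood in type 3, and Cbx8 across the border to type 4.

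Cbx6 and Cbx7 lay in a long type 3 segment. Cbx6 (gene ID 494448, chromosome 15, 79823898 to 79834333, 10.4 kb) and Cbx7 (gene ID 52609, chromosome 15, 79915804 to 79971143, 55.3 kb) were both wholly type 3 and 81.5 kb apart. Their segment, chr15:79810001-80125000, was 315 kb long, with a type 4 segment of 20 kb below it and a type 1 segment of 15 kb above it. The start of Cbx6 was 24333 bp from the nearest border and that of Cbx7 122646 bp. The start of Cbx7 in the promoter table, 79932646, lies inside the annotated body, all of which was type 3.

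The Cbx6 window was 90.5% type 3 and 9.50% type 4, and the Cbx7 window was 100% type 3 with no border in it. The windows share 119 kb, 56.3% of that of Cbx6 and 46.4% of that of Cbx7. Windows wholly in type 3, like that of Cbx7, were those of 1.31% of protein-coding genes, and 3.32% of windows held as much type 3 as that of Cbx6. The median window held 31.6% type 3. The median number of borders in a window was 4, against 2 for Cbx2, Cbx8 and Cbx6 and 0 for Cbx7. As few as 2 or fewer borders were found for 32.2% of genes, with 2 as the lower quartile, and 8.82% of genes had none.

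The type 4 part of the Cbx6 window was the 20 kb segment chr15:79790001-79810000, and it lay over Nptxr, a neuronal pentraxin receptor gene, which was 80.1% type 4. Npcd, annotated with the synonym Cbx6-Nptxr, spans both genes (79786351 to 79834333) and was 58.3% type 3 and 41.7% type 4, and the body of Cbx6 lies inside it. Of the 6 other protein-coding genes in the windows of Cbx6 and Cbx7, Nptxr was the only one mainly in type 4. Sun2, a nuclear envelope gene, Dnal4, a dynein light chain gene, Apobec3, which encodes a deaminase that restricts retroviruses, and Pdgfb, a growth factor gene, were wholly type 3. Apobec3 ends inside the annotated body of Cbx7, so the types of both genes come in part from the same bins. The 7 genes of other kinds, 6 lncRNA genes and Mir7213, were mainly type 3.

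**Figure D2:**
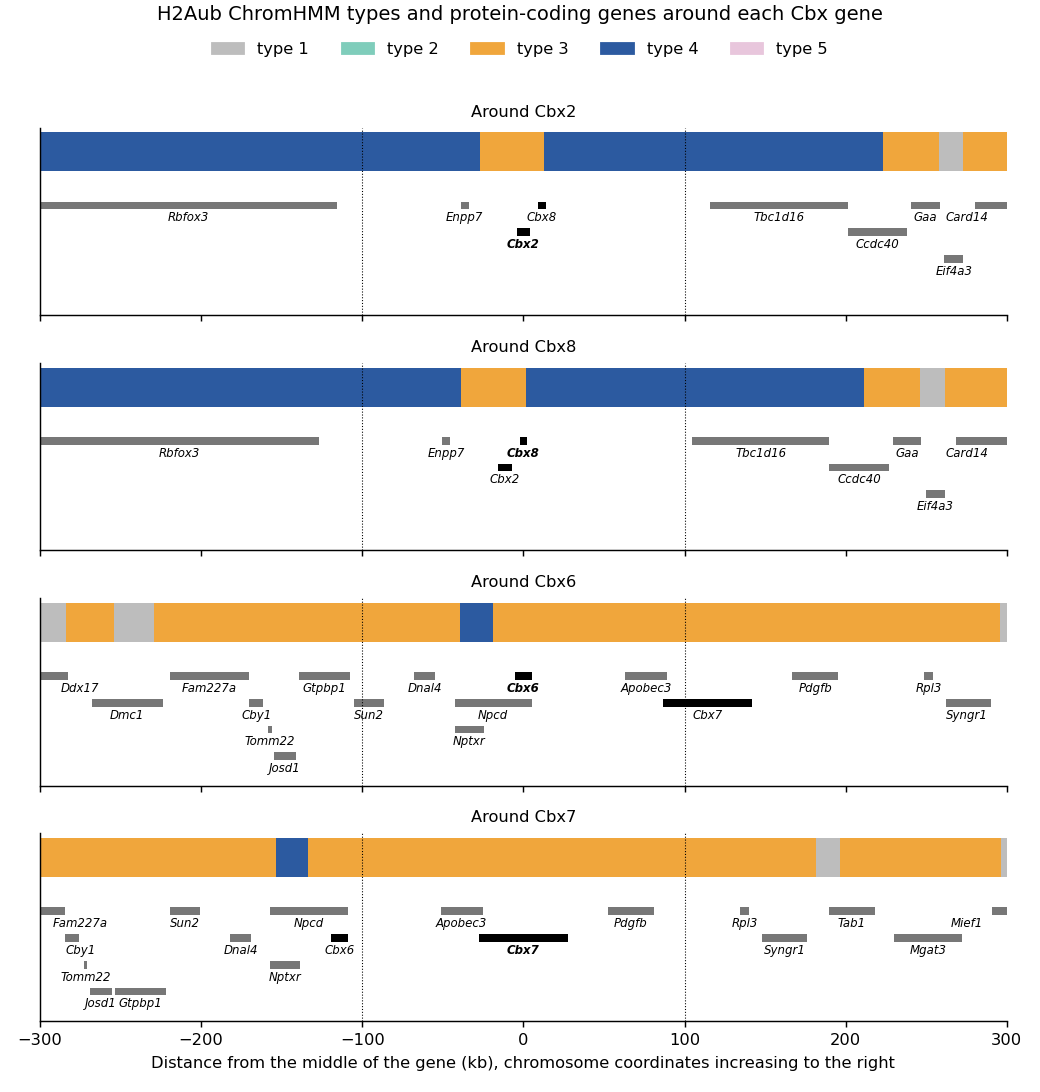
H2Aub types in 5 kb bins (coloured band) by distance in kb from the middle of each gene (x axis), with protein-coding genes as bars below and Cbx genes in black. Dotted lines stand 100 kb from the middle of the gene. Cbx2 and Cbx8 sit in a 40 kb type 3 segment between type 4 segments of 585 and 210 kb, and Cbx6 and Cbx7 in a 315 kb type 3 segment beyond a 20 kb type 4 segment.

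All 4 genes were mainly type 3, where 33.8% of protein-coding genes were, and 3 of the 4 were wholly type 3, where 24.9% were. The 4 genes stand at 2 places, so they are not 4 separate observations. Type 3 took 41.9% of the protein-coding genes of chromosome 11 and 43.0% of those of chromosome 15. With 100 kb on each side, none of the 4 windows held a type other than 3 and 4. The same was so for the windows of 7.69% of protein-coding genes. The Cbx7 window held type 3 alone. The pairs differed in how the types were divided: type 4 took over 80% of the windows of Cbx2 and Cbx8, and at most 9.50% of those of Cbx6 and Cbx7.

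The segments were also unlike in their place and length. Mainly type 3 genes in a type 3 segment with type 4 on both sides made up 2.91% of protein-coding genes, and Cbx2 and Cbx8 were of this kind. Those in a type 3 segment between types 4 and 1 made up 8.42%, with Cbx6 and Cbx7. Type 3 segments with type 4 on both sides numbered 709, with a median length of 40 kb, which was the length of the segment of Cbx2 and Cbx8. The shortest of them was 20 kb, while type 3 segments of all kinds went down to 5 kb. In 3 of the 709 (0.423%), this one among them, the longer type 4 neighbour was at least 585 kb and the shorter at least 210 kb. Both limits are the neighbour lengths of this segment itself, so a small share follows in part from how they were set. Of the 709, 171 (24.1%) were touched by at least 2 protein-coding genes and 253 (35.7%) by none. The 585 kb neighbour, which holds the neuronal splicing factor gene Rbfox3, was 1 of the 15 longest of 4751 type 4 segments. The 210 kb neighbour was 1 of 320 of that length or more (6.74%).

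At 315 kb, the segment of Cbx6 and Cbx7 was 1 of 84 of that length or more among 9092 type 3 segments (0.924%), whose median was 30 kb. Mainly type 3 genes in segments of that length made up 2.58% of protein-coding genes. The stretch of types 3 and 4 without interruption around Cbx2 and Cbx8 ran for 895 kb (118390001 to 119285000), and 11.2% of it was type 3. That around Cbx6 and Cbx7 ran for 525 kb (79600001 to 80125000) and was 96.2% type 3. Of 9247 such stretches, with a median of 40 kb, 22 were as long as the first or longer and 155 as long as the second. Stretches as long as the first held 1.02% of protein-coding genes, and those as long as the second 5.62%.

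**Figure D3:**
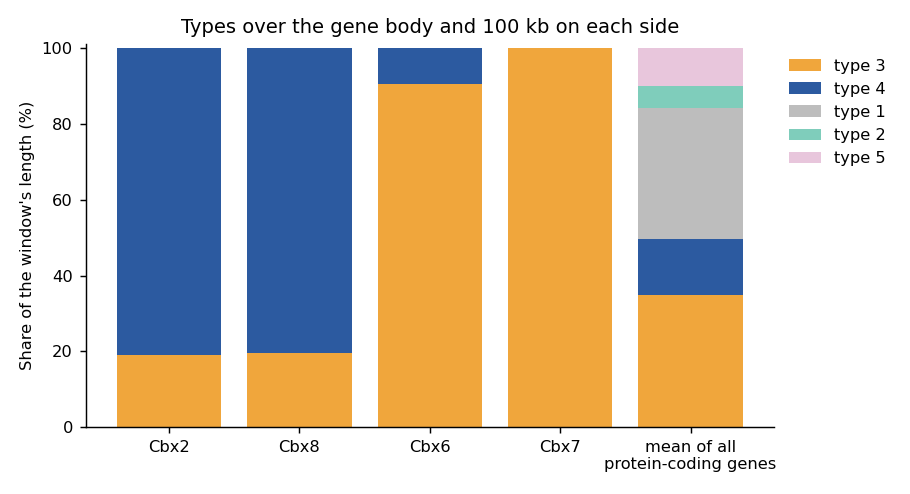
Share of the length of each window (gene body and 100 kb on each side; y axis, percent) in each type, for the 4 genes and as the mean over all protein-coding genes. The windows of Cbx2, Cbx8 and Cbx6 hold types 3 and 4 alone and that of Cbx7 type 3 alone, and the mean window holds 34.8% type 3 and 14.8% type 4.

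**Figure D4:**
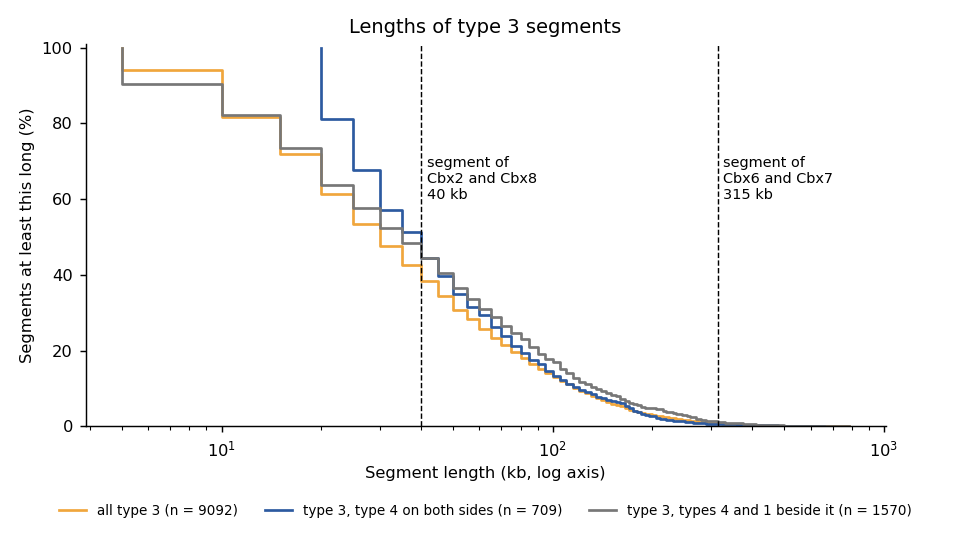
Share of type 3 segments at least as long as a given length (y axis, percent; x axis, kb on a log axis), for all type 3 segments, those with type 4 on both sides and those between types 4 and 1. The 40 kb segment of Cbx2 and Cbx8 is at the median of those with type 4 on both sides, and the 315 kb segment of Cbx6 and Cbx7 is in the far tail.

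Genes with the most similar surroundings were found by counting, over the 41 bins within 100 kb, those that held the same type at the same distance from the gene start, read along the gene. Cbx2 was compared by the middle of the gene in the better of both directions. For Cbx8 all 41 bins were equal at 1 of 16395 genes, the Kelch-family gene Klhl35. For Cbx2 all 41 were equal at 1 of 20471 genes, the ribosomal protein gene Rps3. Both lie on chromosome 7, Klhl35 at 99463121 to 99474022 and Rps3 at 99477896 to 99483709, so it is 1 place that matches both. Next came Angel1 (97.6%), A3galt2, Chit1 and Gzmf (95.1% each) for Cbx2, and Asic2, Chit1, Gzmc and Svs3a (95.1% each) for Cbx8. For Cbx8 the match is of bins around the start, which lay in type 4, and not of the gene body. Unlike the Cbx8 body, those of Klhl35 (63.1%), Asic2 (94.5%), Gzmc (100%) and Svs3a (100%) were mainly type 4. The body of Chit1 was 90.7% type 3. For Cbx6 the closest were Agbl5, the cytokine signalling inhibitor gene Socs1 and the sperm nuclear protein gene Tnp2 (97.6% each), followed by Acot11 and B3galt5 (95.1%). For Cbx7, whose bins were all type 3, 284 genes were equal in every bin, and the first by name were 1700003E16Rik, 2900026A02Rik, 4930432K21Rik, 4933430I17Rik and Abca7. The median gene was equal in 17.1% of bins for Cbx2, 12.2% for Cbx8, 29.3% for Cbx6 and 31.7% for Cbx7.

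The HP1 genes of the Cbx family were of another type. Cbx1, Cbx3 and Cbx5 were all wholly type 1, in segments of 40, 50 and 110 kb. Type 1 was the leading type of 37.2% of protein-coding genes. The windows of the HP1 genes were not without type 3, which took 81.8% around Cbx1, 32.8% around Cbx3 and 55.7% around Cbx5. Of 13 other chromodomain genes on the segmented chromosomes, 9 were mainly type 1, 3 mainly type 3 and 1 mainly type 4. Type 1 took 69.2% of them, against 37.2% of protein-coding genes, and type 3 took 23.1%, against 33.8%. Their share in type 4, 7.69%, was also below that of protein-coding genes. Chd3, a nucleosome remodeller gene, was wholly type 3 with a window wholly in type 3, as at Cbx7. Cdyl was 62.7% type 3, Cdyl2 was split over 4 types with 36.5% in type 3, and Chd5 was 58.6% type 4.

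The partners of the Cbx proteins in canonical PRC1 were mainly of types 1, 3 or 4. Of 8 such genes, 4 were wholly type 3: Ring1, a ubiquitin ligase gene, Bmi1 and Pcgf2, which encode the Polycomb ring finger partners, and Phc1, a polyhomeotic gene. Phc2 was 71.6% type 4, and Rnf2, the other ligase gene, Phc3 and Scmh1 were mainly type 1. The share mainly in type 3 was 50.0%, against 33.8% of protein-coding genes. Of 11 genes of variant PRC1, which lacks a Cbx protein of this class, 4 were mainly type 3 (Pcgf1, Yaf2, Kdm2b and E2f6), 6 mainly type 1 and 1, Auts2, mainly type 2. Their share in type 3 was 36.4%, near that of all genes. Type 1 took 54.5% of them, against 37.2%, and type 2 9.09%, against 5.43%.

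Of 10 PRC2 genes, 7 were mainly type 1, against 37.2% of protein-coding genes, and all 7 were wholly so, among them Eed, Suz12 and Ezh2, which make up the core of the enzyme. Ezh1 and Phf19 were wholly type 3, and Epop was wholly type 4. Of 4 PR-DUB genes, Asxl1 and Asxl2 were wholly type 1, Asxl3 was 48.3% type 1, and Bap1, the deubiquitinase, was wholly type 3. Thus 3 of these 4 were mainly type 1, against the same 37.2%, and 1 of 4 mainly type 3, against 33.8%. Bap1 stood in a 30 kb type 3 segment with type 4 on both sides, the arrangement found at Cbx2 and Cbx8. The arrangement of Cbx6 and Cbx7, a type 3 segment between types 4 and 1, was also shared. Chd3 (370 kb), Pcgf1 (250 kb) and Phf19 (190 kb), all wholly type 3, stood in such segments. Windows of types 3 and 4 alone were not particular to the 4 Cbx genes. They were also found at Phc2 (40.2% and 59.8%), Pcgf1 (71.7% and 28.3%) and Chd5 (44.3% and 55.7%), and Chd3 had type 3 alone. The windows of the other genes of these lists held further types. No test was made between these lists, which are small. They and the 4 members were chosen by name with earlier results of these data known.

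**Figure D5:**
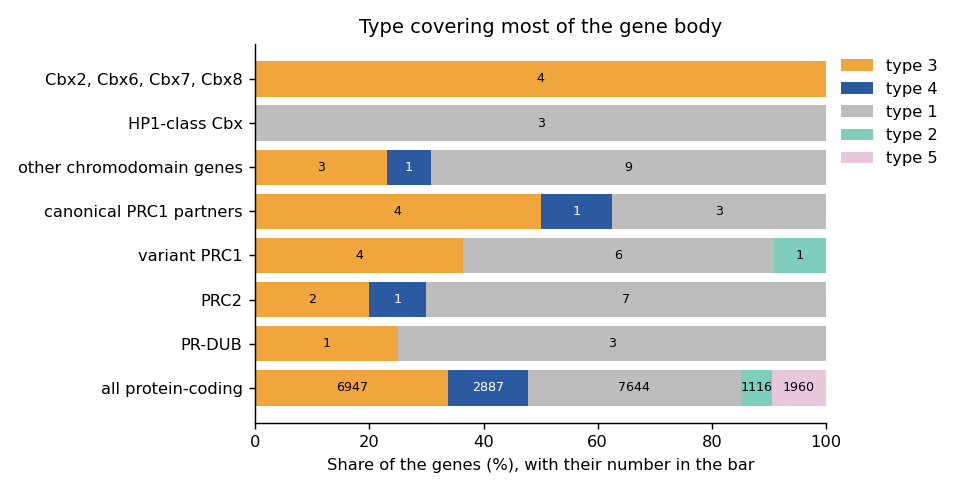
Share of genes (x axis, percent) by the type that covers most of the gene body, for the 4 Cbx genes, lists of related genes and all protein-coding genes, with the number of genes in the bars. The 4 Cbx genes are all type 3, the 3 HP1 genes are all type 1, and all protein-coding genes are 33.8% type 3.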

How the data were processed

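The table that the authors deposited for the whole series is 1 segmentation of chromosomes 1 to 19, made with ChromHMM, as its name says, a program that assigns stretches of chromatin to hidden states. Each deposited segment has a number from 1 to 5 as its type, which is a category without a key. The sources used here do not state the ChromHMM version, the libraries it was run on or its bin size. The submitters' processing notes list deepTools 3.0.2, Picard 2.8.0, Trim Galore 0.4.5, Bowtie2 2.3.4.3 and mm10.

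The 31563 segments were read as 492539 bins of 5 kb, since all borders fell on multiples of 5 kb. In 261 bins segments overlapped and the shorter one was used; none lay in a window described here. Genes came from a RefSeq table of GRCm38.p6. Of its genes, 333 placed on separate scaffolds were left out. A gene's type is the one covering most of its body. Gene starts came from the first entry per gene in a RefSeq promoter table (16456 protein-coding genes, 80.1%). The segmentation has no sample columns, so there is no test, error or replicate. The overlap code was checked on a toy genome with known answers (Python 3.11.15, numpy 2.4.6, pandas 2.3.3).

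The members and gene lists were chosen with earlier results of these data known. Named are the members, the genes of the lists and of the windows, and the 5 genes with the most similar window per member, at least 1 Mb from any member, with ties by name. Rbfox3 and Gm35829 with other genes of non-coding kind were named after their values were seen. Listed genes outside chromosomes 1 to 19 were not analysed here. Alternatives were other window sizes, other ways to give a gene its type, the longer segment in overlaps, merged segments and other gene backgrounds. Some items are not reported here and are left out of the text and plots.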

Additional observations from a re-analysis of the deposited data

How the results depend on the processing

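Of 44 alternatives, 26 left their value within 1 percentage point, or a number of segments within 1.5 times, and 18 did not. No paired analysis was possible because the segmentation has no value per library, and for the same reason no library could be left out. The leading type 3 of Cbx2, Cbx6 and Cbx7 held at 100% with 5 kb on each side, by the bin of the gene middle and by the bin of the gene start (for Cbx2, the bins of both gene ends). For Cbx8, 80.2% type 3 by the body became 59.5% with 5 kb on each side, 100% by the bin of the gene middle and 0% by the bin of the gene start, which is type 4. The share of type 3 follows the width of the window. With 50 kb on each side it was 36.9% for Cbx2, 38.2% for Cbx8 and 81.9% for Cbx6, and with 200 kb it was 9.80%, 9.89% and 95.1%, and 92.3% for Cbx7. With 200 kb the Cbx7 window also took in the 15 kb type 1 segment above its own. It then no longer held types 3 and 4 alone. The share of genes mainly in type 3, 33.8%, was 31.0% over all annotated genes, 35.0% over genes of which a single type covered 90% or more and 38.6% over protein-coding genes of at most 25 kb. The highest share of equal bins with 200 kb on each side was 97.5% for Cbx2 and for Cbx8, 96.3% for Cbx6 and 95.1% for Cbx7, and 95.2% for Cbx6 with 50 kb. Of the 5 genes named for each member, at most 1 was among the 5 closest with 50 or 200 kb, so the names for Cbx2, Cbx8 and Cbx6 depend on the width. For Cbx7 many genes were equal in every bin with 50 or 100 kb, and the order of names chose among them. Read depth is unknown and borders are known to 5 kb.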
